A study of Mus musculus with 12 samples.

Results

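The genes described are 10 FoxO factors and genes tied to FoxO or to low insulin signalling: *Sesn1*, *Fbxo32*, *Trim63*, *Pik3ip1*, *Klf15*, *Pdk4*, *Foxo1*, *Foxo3*, *Irs2* and *Txnip*. They were taken by symbol from 24421 listed genes, all 10 were found, and all 10 passed the filter on low counts in each comparison. They were chosen by a rule that used the rise of *Sesn1* and *Fbxo32* in null lung, so values of the 10 genes in null against WT lung are given as a description without a test. RNA-seq was performed on whole liver and whole lung of newborn mice bred from *Man1a2* +/- parents carrying the Man1a2tm1.1Ahe allele, in which the second exon is deleted. WT mice were *Man1a2* +/+ and null mice were *Man1a2* -/-, a germline loss in every cell that is known for lethal lung changes at birth. Neither genotype received a treatment or carried another named allele, and tissue was taken within 30 to 60 minutes of birth. Each of the 4 groups (WT liver, null liver, WT lung, null lung) had 3 libraries, 12 in all, and both tissues came from 3 mice of each genotype. The depth was 26759463 to 42914295 counted reads per library. Levels are given as CPM, read counts scaled to the same library size with TMM factors over the 12 libraries, on which scale 3 reads correspond to 0.0538 to 0.126 CPM.

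FoxO proteins are transcription factors that insulin holds in check: the insulin receptor acts through IRS adaptors and PI3-kinase on AKT, and AKT phosphorylates FoxO and sends it out of the nucleus. When insulin is low, as in fasting, FoxO stays in the nucleus and turns on genes for fuel saving, protein breakdown and autophagy. Birth ends the supply of glucose from the placenta, and newborn liver is known for switching to its own glucose production. *Foxo1* and *Foxo3* encode the factors themselves, *Irs2* an adaptor of the insulin receptor, and *Pik3ip1* a membrane protein that restrains PI3-kinase. *Sesn1* encodes a sestrin that restrains mTORC1 and is also a target of p53. *Fbxo32* (atrogin-1) and *Trim63* (MuRF1) encode ubiquitin ligases of muscle wasting. *Klf15* encodes a transcription factor of amino acid and glucose metabolism that glucocorticoids induce, *Pdk4* a kinase that shuts pyruvate dehydrogenase, and *Txnip* an arrestin-like protein that restrains glucose uptake.

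The promoters of these genes were searched for a FoxO site (GTAAACA), the insulin response sequence (CAAAACA) and the E-box (CACGTG), on both strands of the stretch from 250 bases before to 50 bases after the transcription start. Promoters of 9 of the 10 genes matched the RefSeq table (GRCm38.p6), 10 promoters in all because *Sesn1* has 2. None is listed for *Fbxo32*. The FoxO site was found in *Sesn1*, *Trim63* and *Txnip*, against 3.65% of 32851 promoters of all genes. The insulin response sequence was found in *Irs2* (6.28% of all promoters) and the E-box in *Irs2* and, at 3 places, in *Klf15* (7.15% of all promoters). The stretches that hold the FoxO site or the insulin response sequence are shown because they are the known letters of FoxO binding, with the matches in capitals. A match is a description of these letters and was not tested as a binding site.
Txnip, chr3:96557707-96557956, plus strand, 250 bases up to the start, FoxO site at -121 to -115: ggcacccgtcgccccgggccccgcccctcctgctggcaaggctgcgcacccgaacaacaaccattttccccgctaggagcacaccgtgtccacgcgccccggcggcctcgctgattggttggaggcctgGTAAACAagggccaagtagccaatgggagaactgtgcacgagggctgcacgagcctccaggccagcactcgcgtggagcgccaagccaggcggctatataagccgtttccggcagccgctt
Trim63, chr4:134314870-134315119, plus strand, 250 bases up to the start, FoxO site on the reverse strand at -194 to -188: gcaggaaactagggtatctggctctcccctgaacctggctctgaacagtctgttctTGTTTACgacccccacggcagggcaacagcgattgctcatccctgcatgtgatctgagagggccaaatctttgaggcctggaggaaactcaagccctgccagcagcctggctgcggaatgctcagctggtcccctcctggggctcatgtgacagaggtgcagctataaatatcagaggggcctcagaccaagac
Irs2, chr8:11008930-11009179, minus strand, 250 bases up to the start, E-box at -44 to -39 and insulin response sequence on the reverse strand at -37 to -31: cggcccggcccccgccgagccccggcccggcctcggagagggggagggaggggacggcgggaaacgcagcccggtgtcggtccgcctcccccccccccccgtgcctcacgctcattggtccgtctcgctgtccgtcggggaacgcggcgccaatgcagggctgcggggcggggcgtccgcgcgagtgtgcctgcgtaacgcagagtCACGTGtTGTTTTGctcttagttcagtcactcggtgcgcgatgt
Sesn1, chr10:41810589-41810618, plus strand, 30 bases after the start of 1 of its 2 promoters, FoxO site on the reverse strand at 23 to 29: cttctacTGTTTACcagccttttgggacca
The start is that of RefSeq. For *Irs2* the GENCODE gene begins further downstream, at 11008458, and the bases after the RefSeq start were not found in a GENCODE transcript. Positions count from the first transcribed base, which is 1, with -1 before it. The 30 bases shown for *Sesn1* are bases 16 to 45.

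Before the comparisons, 2 libraries stood apart. Here and below, percent of reads on markers is their summed TMM-scaled CPM as a percent. It differs from the share of raw counts by each library's TMM factor (0.672 to 1.39). The library labelled null lung 1 went against its tissue label: lung epithelial markers made up 0.0707% of its reads against 2.58% to 3.25% in the other 5 lung libraries. *Sftpc*, the surfactant gene of alveolar cells, had 931 reads in it against 471108 to 867673 in those 5. Heart muscle markers made up 2.62% of its reads (0.0434% to 0.105% in the others) and skeletal muscle markers 1.49% (0.00335% to 0.00886%). Null liver 1 carried skeletal muscle markers at 0.674% of reads against 0.000724% to 0.00112% in the other 5 livers, where *Myod1* and *Myog*, the regulators of skeletal muscle identity, were at 0. Its heart muscle markers were at 0.0478% of reads (0.000783% to 0.00107% in the others), while its liver markers stood at 21.5%, inside the range of 19.8% to 24.9% over the other livers. Results are therefore given with and without these libraries. *Man1a2*, the targeted gene, was at 54.2 to 87.0 CPM in WT liver, 48.2 to 53.7 CPM in null liver, 75.5 to 107 CPM in WT lung and 42.5 to 50.2 CPM in null lung. These reads also come from the exons that the deletion leaves.

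Null liver held more RNA of most of the 10 genes than WT liver. By edgeR's quasi-likelihood test, 8 of 10 genes rose and 0 fell (adjusted p under 0.05 and a size of 1.2-fold or more), where 26.9% of the 14343 genes tested were called, 13.5% higher and 13.4% lower. The null livers come from the same mice as the null lungs on which the genes were chosen, so the liver values are not independent of the choice. The median log2 fold change of the 10 genes was 1.53, against 0.02 over all genes tested. *Sesn1*, *Txnip* and *Fbxo32* rose most among the 8. In whole tissue, a change in the share of a cell type and a change of RNA per cell cannot be told apart.

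Both FoxO factors rose in null liver. *Foxo1* stood at 50.7, 45.3 and 56.0 CPM in WT liver and at 72.5, 83.7 and 84.9 CPM in null liver, with every null library above every WT library. Its log2 fold change was 0.66 ± 0.12 (SE, n = 3 each, edgeR adjusted p = 0.00892). *Foxo3* stood at 27.9, 18.8 and 22.2 CPM in WT liver and at 45.6, 43.5 and 41.9 CPM in null liver, and the groups again did not overlap. It rose by 0.92 ± 0.16 on the log2 scale (edgeR adjusted p = 0.00687).

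The 2 genes upstream of AKT rose as well. *Irs2* was at 46.8, 25.9 and 47.4 CPM in WT liver and at 95.1, 77.7 and 134 CPM in null liver, 2.54-fold higher (log2 fold change 1.35 ± 0.29, edgeR adjusted p = 0.0147). *Pik3ip1* was at 5.24, 4.09 and 4.14 CPM in WT liver and at 18.7, 11.1 and 14.5 CPM in null liver, 3.27-fold higher (1.71 ± 0.23, edgeR adjusted p = 0.00358). In both genes the lowest null library lay above the highest WT library.

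*Sesn1*, the sestrin gene, was at 44.9, 44.8 and 32.1 CPM in WT liver and at 233, 164 and 255 CPM in null liver. The groups were far apart, with a 5.35-fold difference (log2 fold change 2.42 ± 0.21, edgeR adjusted p = 0.00201), the 124th largest rise of 14343 genes. *Fbxo32* was low in liver, at 2.64, 3.51 and 2.40 CPM in WT and 17.6, 10.1 and 10.05 CPM in null, and rose 4.41-fold (2.14 ± 0.28, edgeR adjusted p = 0.00343). Without null liver 1, the library with muscle markers, the log2 fold change of *Fbxo32* was 1.83.

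*Trim63* did not pass the test. It had 9, 4 and 17 reads in WT liver and 940, 9 and 26 reads in null liver, or 0.317, 0.165 and 0.582 CPM against 35.4, 0.315 and 1.09 CPM, so the groups overlapped. The level above the rest was that of null liver 1, the library that carried skeletal muscle markers. The log2 fold change was 5.05 ± 1.69 (edgeR adjusted p = 0.0611) with it and 0.93 ± 0.66 (edgeR adjusted p = 0.331) without it. It passed when null liver 2 (5.60, edgeR adjusted p = 0.0264) or null liver 3 (5.59, edgeR adjusted p = 0.0475) was left out, with null liver 1 as 1 of the 2 null livers that remained. The part of muscle RNA in the values of *Trim63*, *Fbxo32*, *Pik3ip1*, *Klf15* and *Foxo3*, each highest in null liver 1 among the livers, was not tested beyond leaving this library out. The plot of 3 genes against muscle marker reads shows where each library lay.

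**Figure D1:**
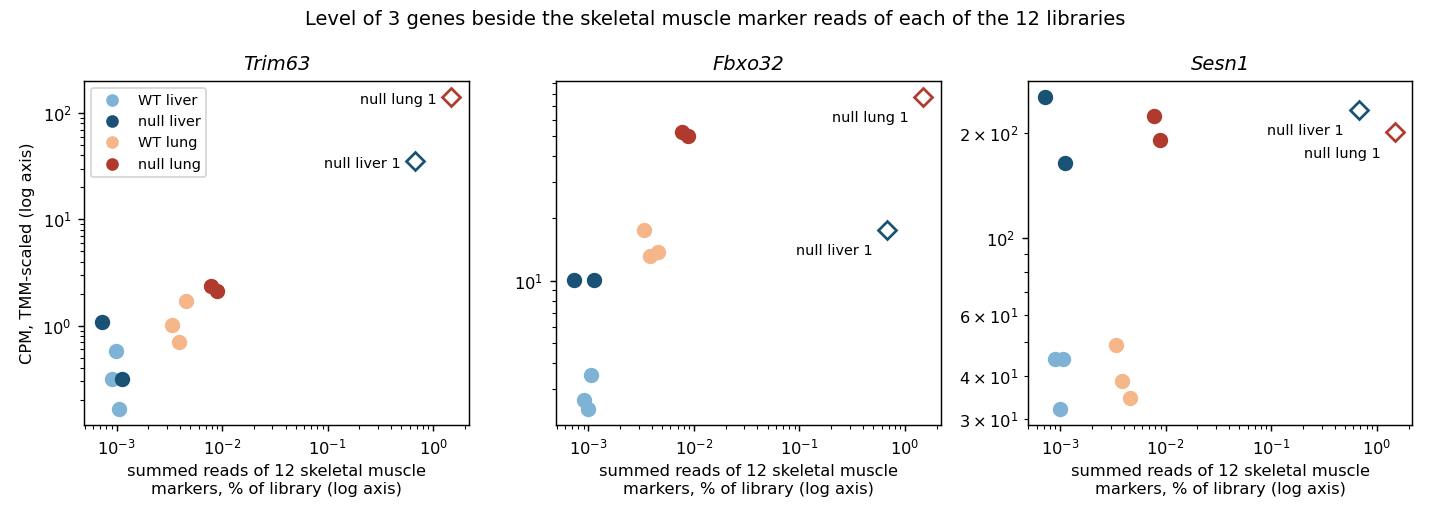
Each point is 1 of the 12 libraries. Its summed TMM-scaled reads on 12 skeletal muscle markers (percent, log axis) stand against the level of *Trim63*, *Fbxo32* or *Sesn1* (CPM, log axis). Open diamonds are null liver 1 and null lung 1. *Trim63* is highest in these 2 libraries, whereas *Sesn1* lies between 164 and 255 CPM in all 6 null libraries and at 49.1 CPM or below in all WT libraries.

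Of the 3 metabolic genes, 2 rose. *Klf15* was at 121, 104 and 107 CPM in WT liver and at 204, 183 and 159 CPM in null liver, a rise of 0.71 ± 0.13 on the log2 scale (edgeR adjusted p = 0.00788). *Txnip* was at 546, 381 and 704 CPM in WT liver and at 2189, 1825 and 3644 CPM in null liver, 4.69-fold higher (2.23 ± 0.32, edgeR adjusted p = 0.00463). *Pdk4* was at 168, 133 and 122 CPM in WT liver and at 188, 245 and 635 CPM in null liver. Its groups did not overlap, but the null livers were spread widely and the log2 fold change of 1.34 ± 0.44 missed the threshold (edgeR adjusted p = 0.0569). It passed without null liver 1 (1.65 ± 0.35, edgeR adjusted p = 0.0134), and it stood at 0.61 when null liver 3, its highest library, was left out.

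Counted by libraries, 9 of the 10 genes had all 3 null livers above all 3 WT livers, *Trim63* being the exception, beside 23.1% of all genes tested. A two-sided exact permutation test gave 0.1 for each of the 9, the smallest p that 3 libraries against 3 allow, and 0.3 for *Trim63*. Each of the 8 genes called stayed called when any 1 of the 6 libraries was left out, with null liver 1 among them. Without null liver 1, 9 of 10 genes were called, all higher, beside 11.9% of 14501 genes called higher and 11.9% called lower. The plot of the 10 genes by library shows these levels with those of lung.

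**Figure D2:**
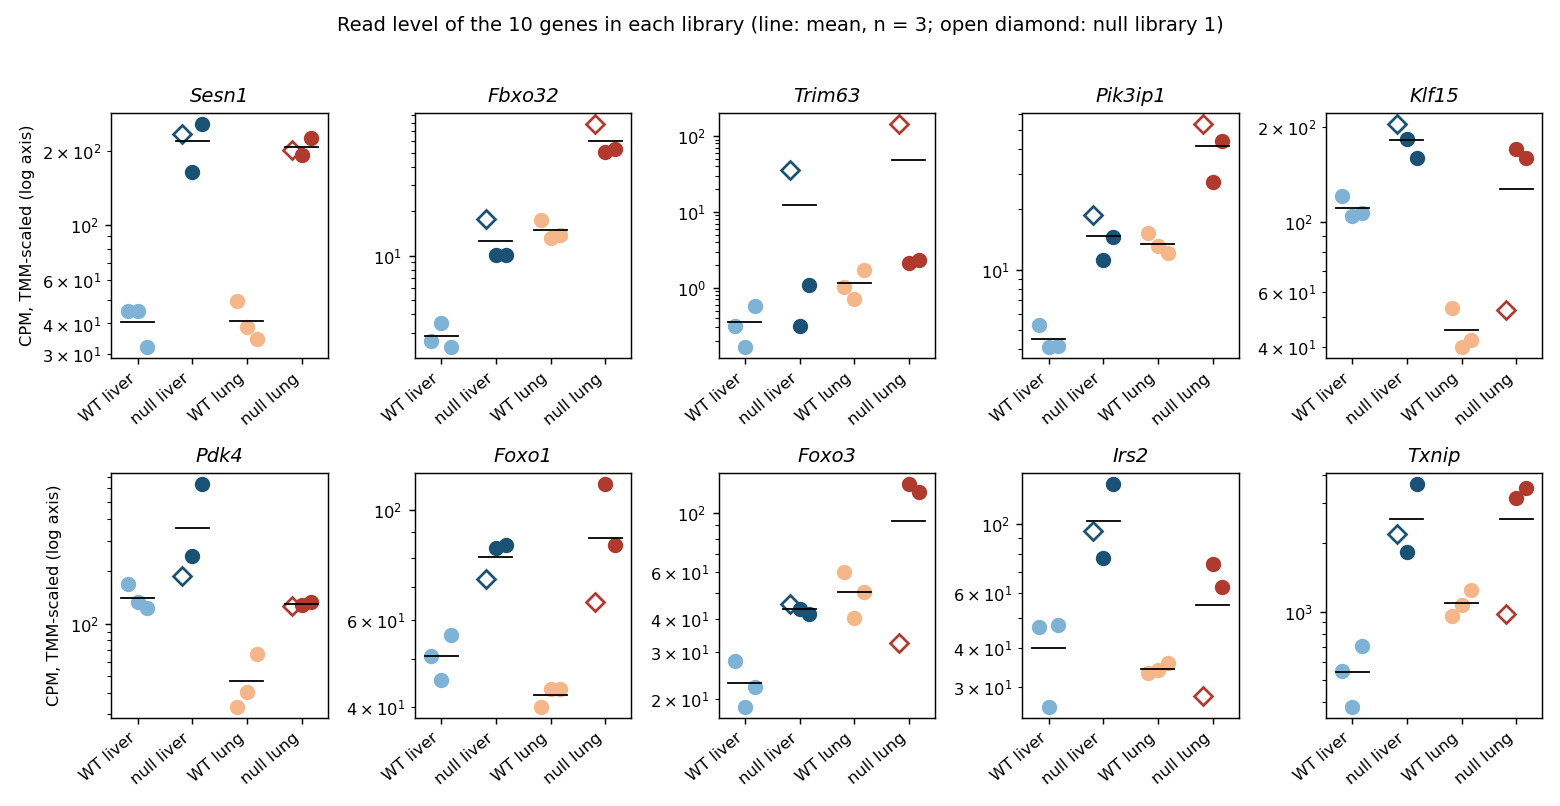
Level of each of the 10 genes (CPM, TMM-scaled, log axis) in the 12 libraries by group; points are libraries in the order 1 to 3, lines are means of 3, and open diamonds mark null liver 1 and null lung 1. The null livers lie above the WT livers in every gene but *Trim63*; null lung 1 lies below the other null lungs in *Klf15*, *Foxo1*, *Foxo3*, *Irs2* and *Txnip* and far above them in *Trim63*.

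Between the WT tissues, the genes split by direction. Of the 10 genes, 3 were higher and 5 lower in WT liver than in WT lung, beside 77% of 15635 genes called between these tissues (37.2% higher and 39.8% lower in liver), so a count of 8 called is close to that of genes in general. The median log2 difference, liver minus lung, was -0.49. This comparison uses the same WT libraries as the comparisons of genotypes. WT lung libraries held heart muscle markers at 0.0434% to 0.0686% of reads and skeletal muscle markers at 0.00335% to 0.00460%, against at most 0.00107% and 0.00106% in WT liver. Whether they bear on the genes that were higher in lung was not tested.

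The muscle ligases and the PI3-kinase inhibitor were higher in lung. *Fbxo32* stood at 17.6, 13.2 and 13.8 CPM in WT lung, all above the WT livers, and was lower in liver (log2 difference -2.38 ± 0.19, edgeR adjusted p = 2.41e-06). *Pik3ip1* stood at 15.3, 13.1 and 12.05 CPM in WT lung (log2 difference -1.57 ± 0.16, edgeR adjusted p = 1.52e-05). *Trim63* was the lowest of the 10 genes in both tissues, with 57, 27 and 77 reads in WT lung, and was lower in liver (-1.64 ± 0.47, edgeR adjusted p = 0.0103). *Foxo3* at 60.1, 40.4 and 50.5 CPM and *Txnip* at 958, 1068 and 1238 CPM in WT lung were also higher than in WT liver. Their log2 differences were -1.12 ± 0.18 (edgeR adjusted p = 0.000306) and -0.98 ± 0.24 (edgeR adjusted p = 0.00404).

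*Klf15* and *Pdk4* were higher in liver. *Klf15* stood at 53.5, 40.1 and 42.3 CPM in WT lung (log2 difference 1.30 ± 0.12, edgeR adjusted p = 9.24e-06), and *Pdk4* at 33.3, 40.2 and 67.2 CPM (1.60 ± 0.24, edgeR adjusted p = 0.000226). *Foxo1*, at 40.1, 43.6 and 43.4 CPM in WT lung, was called higher in liver by a small margin (0.27 ± 0.10, edgeR adjusted p = 0.031). This call was lost when WT liver 3 or any 1 of the 3 WT lungs was left out, where the log2 difference was 0.21 to 0.30.

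*Sesn1* and *Irs2* did not differ detectably between the WT tissues. *Sesn1* was at 49.1, 38.8 and 34.6 CPM in WT lung, overlapping its level in WT liver, with a log2 difference of 0.00 ± 0.16 (edgeR adjusted p = 0.988). Left-out libraries moved it between -0.10 and 0.16. *Irs2* was at 33.3, 33.9 and 35.7 CPM in WT lung (log2 difference 0.24 ± 0.20, edgeR adjusted p = 0.296). Without WT liver 2, its lowest liver at 25.9 CPM, *Irs2* was called higher in liver by 0.48. A missed threshold does not show equal levels.

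Levels of different genes were compared per kb of exon, by the union of exons in GENCODE M21. In WT liver *Txnip* led at 174 ± 51.7 CPM per kb (SD, n = 3), followed by *Pdk4* at 40.2 ± 6.78 and *Klf15* at 39.6 ± 3.12, whose ranges overlapped. *Sesn1* followed at 10.2 ± 1.84, *Irs2* at 6.33 ± 1.94 and *Foxo1* at 5.85 ± 0.615, the last 2 overlapping. *Foxo3* at 3.03 ± 0.606, *Pik3ip1* at 1.05 ± 0.153, *Fbxo32* at 0.408 ± 0.0839 and *Trim63* at 0.125 ± 0.0742 closed the order without overlap. In WT lung *Txnip* led again at 348 ± 45.1 CPM per kb, *Klf15* (16.2 ± 2.56), *Pdk4* (13.4 ± 5.11) and *Sesn1* (10.3 ± 1.88) overlapped as neighbours, and *Trim63* was again lowest at 0.403 ± 0.178. *Sesn1* therefore held the fourth place in both WT tissues. In null liver *Sesn1* was at 54.7 ± 11.9 CPM per kb and overlapped *Klf15* above it at 65.2 ± 7.91. In null lung it was at 51.7 ± 4.33, behind *Txnip* alone at 815 ± 437, and overlapped *Klf15* below it at 45.6 ± 23.2. That place rested on null lung 1: in null lungs 2 and 3 *Klf15* was at 60.9 and 57.2 CPM per kb, above *Sesn1* at 48.1 and 56.5.

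**Figure D3:**
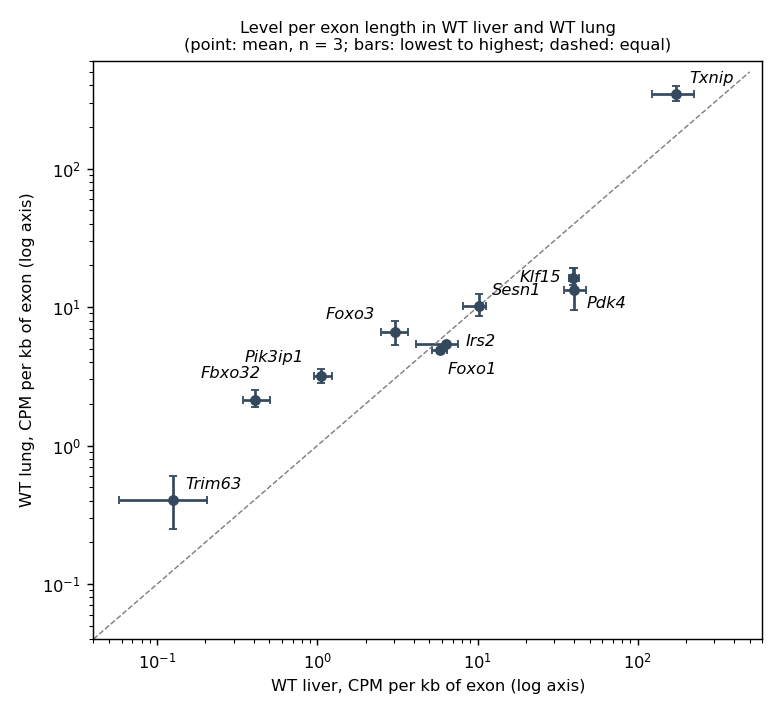
Mean level per kb of exon (CPM per kb, log axes) of the 10 genes in WT liver and WT lung, with bars from the lowest to the highest of 3 libraries and a dashed line of equal levels. *Fbxo32*, *Pik3ip1*, *Trim63*, *Foxo3* and *Txnip* lie on the lung side, *Klf15* and *Pdk4* on the liver side, and *Sesn1* on the line at about the same level in both (10.2 and 10.3 CPM per kb).

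In null against WT lung, the contrast that the choice of genes used, values are a description. *Sesn1* stood at 49.1, 38.8 and 34.6 CPM in WT lung and at 201, 191 and 225 CPM in null lung, with a log2 fold change of 2.34 ± 0.18. *Fbxo32* stood at 17.6, 13.2 and 13.8 CPM in WT and at 77.7, 50.2 and 52.6 CPM in null lung (2.02 ± 0.24). In both genes the 3 null lungs, null lung 1 included, lay above the WT lungs, and for *Sesn1* null lung 1 fell between the other null lungs. Since null lung 1 went against its tissue label, tissue and genotype cannot be told apart in it. *Pik3ip1* was at 53.4, 27.5 and 43.9 CPM in null lung (1.64 ± 0.28) and *Pdk4* at 126, 127 and 133 CPM (1.46 ± 0.28). *Foxo1* was at 65.0, 113 and 84.8 CPM (1.05 ± 0.21). These 3 genes also did not overlap with WT lung. Null lung 1, which carried muscle markers, was the highest lung library for *Fbxo32* and *Pik3ip1*. The part of muscle RNA in their lung values was not tested.

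In the other genes, null lung 1, the library that went against its label, stood apart from null lungs 2 and 3. *Klf15* was at 52.7 CPM in null lung 1, inside the WT range, against 169.9 and 159.5 CPM in null lungs 2 and 3. *Foxo3* was at 32.6 CPM against 128 and 119 CPM. *Irs2* was at 27.9 CPM against 74.6 and 62.8 CPM. For *Foxo3* and *Irs2*, null lung 1 lay below all WT lungs. *Txnip* was at 979.8 CPM in null lung 1 against 3165 and 3492 CPM. *Trim63* showed the opposite pattern, with 143 CPM (5022 reads) in null lung 1 against 2.10 and 2.34 CPM in the others and 1.02, 0.711 and 1.70 CPM in WT lung.

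Counts of the 10 genes in lung follow from how they were chosen, and nothing is read from them. Over the 6 lung libraries, 0.327% of 15591 genes were called (0.0898% higher, 0.237% lower). All 3 null lungs lay above the WT lungs in 6 of 10 genes, beside 16.3% of genes tested. Without null lung 1, which leaves 2 null lungs against 3 WT lungs, 18% of 15885 genes were called higher and 19% lower. The log2 fold changes were then 2.35 ± 0.16 for *Sesn1*, 1.78 ± 0.14 for *Fbxo32*, 1.86 ± 0.13 for *Klf15*, 1.61 ± 0.13 for *Txnip*, 1.29 ± 0.15 for *Foxo3* and 0.99 ± 0.11 for *Irs2*. *Trim63* was then at 0.95 ± 0.36. Null lungs 2 and 3 held skeletal muscle markers at 0.00777% and 0.00886% of reads against 0.00335% to 0.00460% in WT lung, and heart muscle markers at 0.0841% and 0.105% against 0.0434% to 0.0686%. With null lung 1 left out, 6 of 10 skeletal and 7 of 10 heart muscle markers tested were called higher in null lung. Their part in the lung values was not tested.

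**Figure D4:**
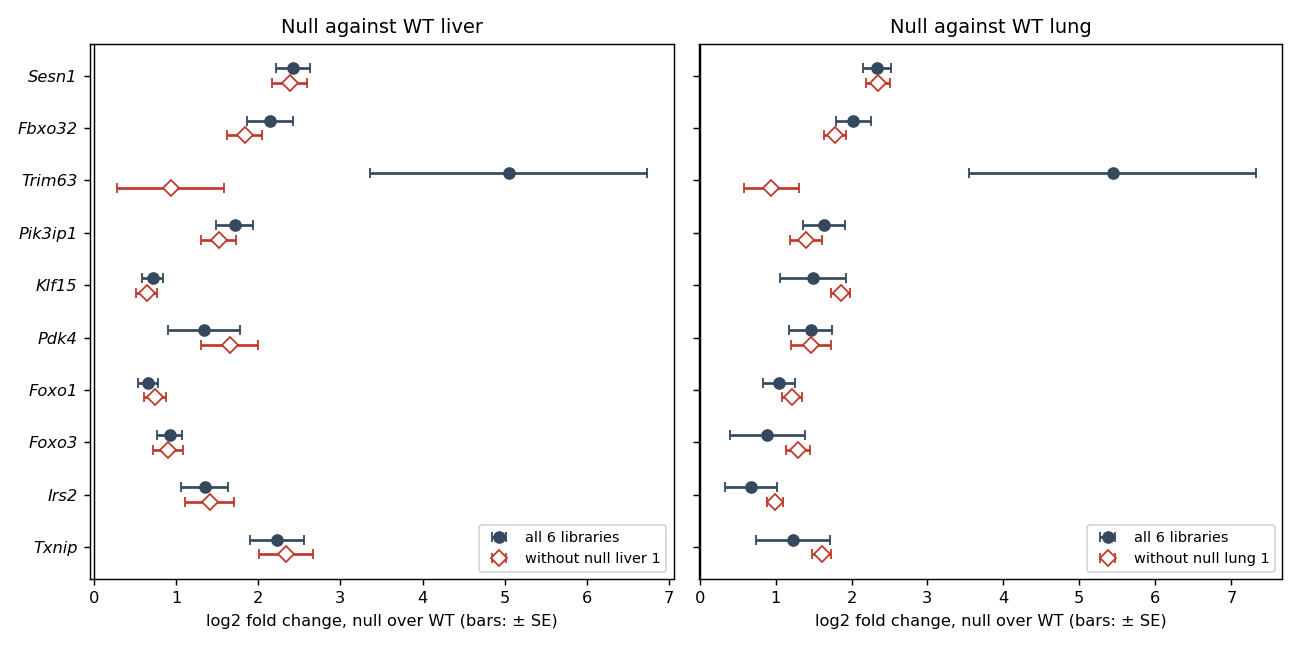
Log2 fold change of each gene, null over WT (bars are ± SE), in liver and in lung, with all 6 libraries of a tissue (filled circles) and without null liver 1 or null lung 1 (open diamonds). In liver *Trim63* drops from 5.05 to 0.93 and the other 9 genes stay between 0.64 and 2.42; in lung, where the genes were chosen by this contrast, *Trim63* drops from 5.44 to 0.95.

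The remaining genes of the pathway were counted from lists of known members, in the same fits. Of 18 other genes of the insulin, FoxO and mTOR signalling chain, 8 rose in null liver and 0 fell (13.5% and 13.4% of all genes), with a median log2 fold change of 0.34. Without null liver 1, 5 rose and 1 fell. The gene that fell was *Irs1*, the sister adaptor of *Irs2*, opposite in sign to *Irs2* in liver. It was at -0.87 ± 0.30 with all 6 libraries (edgeR adjusted p = 0.0689). Without null liver 1 it was at -1.31 ± 0.19 (edgeR adjusted p = 0.00433). In lung *Irs1* had the sign of *Irs2*, at 1.13 ± 0.32 over 6 libraries (edgeR adjusted p = 0.116). Without null lung 1 it was at 0.73 ± 0.16 (edgeR adjusted p = 0.011). *Rictor*, the mTORC2 subunit needed for full AKT activation, rose from 26.2 to 32.4 CPM in WT to 69.0 to 94.6 CPM in null liver (log2 fold change 1.48 ± 0.15, edgeR adjusted p = 0.00212). *Sgk1*, a kinase related to AKT (1.14 ± 0.27, edgeR adjusted p = 0.0206), and *Foxo4*, another FoxO factor (0.87 ± 0.11, edgeR adjusted p = 0.0033), rose too. *Insr*, the insulin receptor, was at 107 to 131 CPM in WT and 89.7 to 120 CPM in null liver and was not called (-0.13 ± 0.14, edgeR adjusted p = 0.539).

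Of 18 other FoxO targets, 12 rose and 1 fell in null liver, with a median of 0.81. *Trp53inp1*, an autophagy and p53 response gene, rose from 65.5 to 72.1 CPM in WT to 312 to 629 CPM in null liver (2.59 ± 0.29, edgeR adjusted p = 0.00269). *Atg14*, a subunit of the autophagy lipid kinase (1.55 ± 0.23, edgeR adjusted p = 0.00482), and *Ccng2*, a cyclin of cell cycle arrest (1.54 ± 0.14, edgeR adjusted p = 0.00201), followed. *Ulk2*, an autophagy kinase, was the gene that fell, by 0.63 ± 0.15 on the log2 scale (edgeR adjusted p = 0.0185).

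Liver genes of fasting did not share a direction. Of 12, 3 rose and 3 fell in null liver, and the median was 0.29. *Lpin1*, a phosphatidate phosphatase and transcriptional partner in fasting, rose from 62.4 to 291 CPM in WT to 563 to 1029 CPM in null (2.23 ± 0.54, edgeR adjusted p = 0.0225), and *Igfbp1*, a secreted IGF-binding protein, rose by 1.41 ± 0.32 (edgeR adjusted p = 0.0176). *Fgf21*, a fasting hormone of the liver, had 43, 49 and 174 reads in WT and 1, 8 and 2 reads in null liver and was called lower (edgeR adjusted p = 0.00758). *G6pc*, the last enzyme of glucose release, fell by 0.75 ± 0.21 (edgeR adjusted p = 0.0335), while *Pck1*, an earlier enzyme of glucose production, was not called (0.19 ± 0.26, edgeR adjusted p = 0.617).

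Among 15 close relatives of the 10 genes, 13 were tested in liver, and 6 rose and 0 fell (median 0.77). *Klf9* (1.52 ± 0.20, edgeR adjusted p = 0.00355), *Arrdc4*, a relative of *Txnip* (1.48 ± 0.18, edgeR adjusted p = 0.00325), and the sestrin *Sesn3* (1.28 ± 0.20, edgeR adjusted p = 0.00522) rose most. Since *Sesn1* is also a p53 target and *Klf15* a glucocorticoid target, both of those lists were counted. Of 12 p53 targets, 7 rose and 1 fell (median 0.78), led by *Trp53inp1*, which the FoxO list also holds, *Bbc3* (1.99 ± 0.25, edgeR adjusted p = 0.00331) and *Cdkn1a* (1.33 ± 0.22, edgeR adjusted p = 0.00661). Of 12 glucocorticoid targets, 10 rose and 0 fell (median 1.34), with *Zbtb16* at 2.66 ± 0.61 (edgeR adjusted p = 0.0182), *Mt2* at 2.53 ± 0.54 (edgeR adjusted p = 0.0149) and *Mt1* at 1.72 ± 0.48 (edgeR adjusted p = 0.0351). Without null liver 1, the counts higher and lower were 12 and 1 for the FoxO targets, 3 and 4 for the fasting genes, 6 and 1 for the relatives, where *Irs1* fell, 6 and 0 for the p53 targets and 10 and 0 for the glucocorticoid targets. *Cdkn1a*, *Irs1*, *Klf9*, *Sesn2*, *Sesn3*, *Sgk1*, *Foxo4*, *Foxo6*, *Tat* and *Trp53inp1* each stand in more than 1 list, so the counts are not independent of one another.

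Between the WT tissues, 11 of the 12 fasting genes were higher in liver and 0 lower, with a median log2 difference of 5.53, led by *G6pc* (10.41 ± 0.89, edgeR adjusted p = 4.13e-06). The other lists divided, as did all genes tested (77% of 15635 called, 37.2% higher and 39.8% lower in liver). Insulin signalling had 4 of 18 higher and 10 lower in liver. *Insr* was 1.03 ± 0.10 higher (edgeR adjusted p = 1.24e-05) and *Igf1r*, the IGF1 receptor, lower (-1.95 ± 0.11, edgeR adjusted p = 2.16e-07). The FoxO targets had 6 of 18 higher and 8 lower, the close relatives 3 of 14 higher and 7 lower, the p53 targets 2 of 12 higher and 6 lower, and the glucocorticoid targets 5 of 12 higher and 6 lower. The plot of the lists gives the same counts beside those over all genes.

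**Figure D5:**
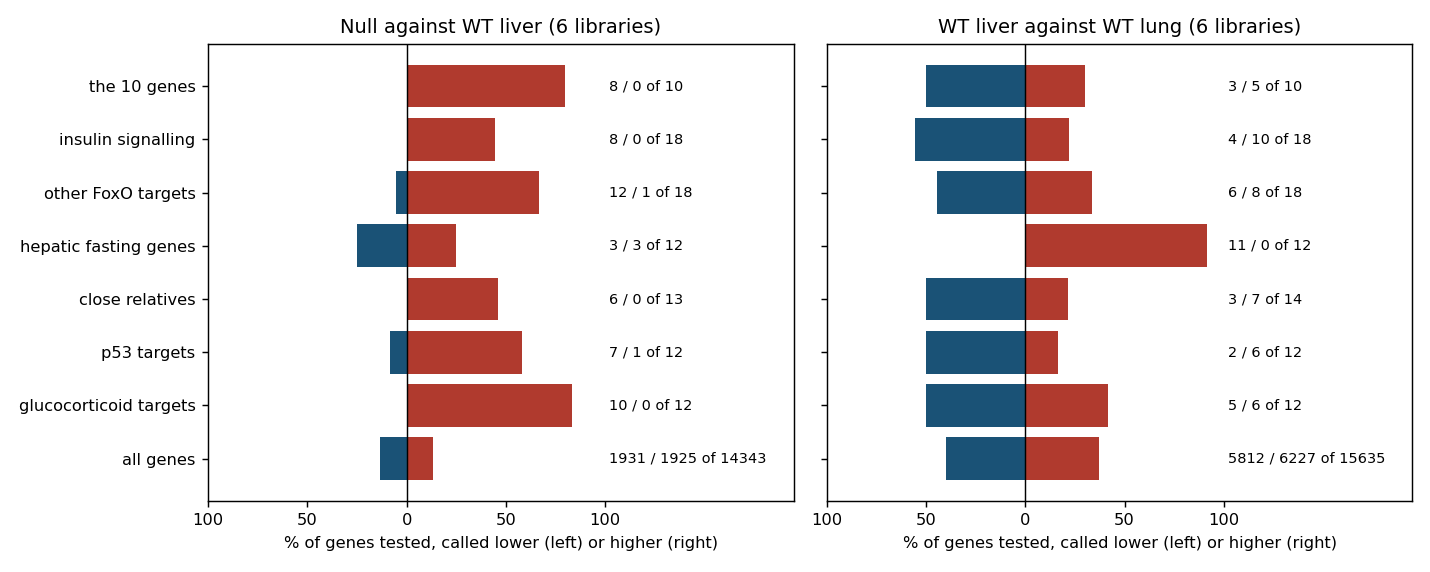
Share of the genes tested in each list (percent) that were called higher (red, right) or lower (blue, left) in null liver than in WT liver and in WT liver than in WT lung, with the counts higher / lower of tested. In null liver 8 of the 10 genes, 12 of 18 other FoxO targets and 10 of 12 glucocorticoid targets were higher, against 1931 of 14343 genes over all; between WT tissues only the fasting list, 11 of 12, had calls on the liver side alone.

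In lung over 6 libraries, edgeR called 0 genes of each of these 6 lists, with 2 of 12 p53 targets, 3 of 11 fasting genes, 7 of 12 glucocorticoid targets, 8 of 18 insulin signalling genes, 10 of 18 FoxO targets and 10 of 15 relatives at an unadjusted p under 0.05, beside 3898 of all 15591 genes. DESeq2 called 2, 3, 6, 5, 8 and 5 of them, beside 2355 of the 15573 genes that it gave an adjusted p. Without null lung 1, where 18% of all genes were called higher and 19% lower, edgeR called 4 p53 targets higher and 0 lower, 3 fasting genes higher and 2 lower, 10 glucocorticoid targets higher and 0 lower, 11 insulin signalling genes higher and 0 lower, 12 FoxO targets higher and 1 lower, and 10 relatives higher and 0 lower. *Trp53inp1* was at 85.1 to 106 CPM in WT lung and at 157, 512 and 635 CPM in null lung, and *Ulk2* at 55.8 to 62.5 CPM in WT and 36.8, 41.8 and 38.0 CPM in null lung. In both, null lung 1 lay on the same side of the WT lungs as null lungs 2 and 3. That library went against its tissue label, so tissue and genotype cannot be told apart in it.

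The genes whose pattern was nearest to that of *Sesn1* were ranked by the root mean square difference of log2(CPM + 0.5), after each tissue's mean was subtracted, over 12 libraries and 11753 genes whose mean reached 1 log2 CPM. *Fbxo32* was nearest (0.337), followed by *Nr1d1* (0.416) and *Nr1d2* (0.442), which encode the clock repressors REV-ERB alpha and beta, *Pik3ip1* (0.460) and *Il1r2*, a decoy receptor of interleukin 1 (0.479). *Nr1d1* stood at 16.1 to 23.3 CPM in WT liver, 92.0 to 97.6 CPM in null liver, 7.44 to 14.3 CPM in WT lung and 54.9 to 98.9 CPM in null lung. Without null liver 1 and null lung 1 the order changed to *Trp53inp1* (0.251), *Fosl2* (0.307), *Cry2* (0.343), *Pim3* (0.354) and *Fbxo32* (0.356), so *Fbxo32* was among the 5 nearest genes in both rankings. *Sesn1* and *Fbxo32* were both chosen by their rise in null lung, so their nearness is in part fixed by the choice. *Trim63* was not among the genes ranked, and the remaining genes of the 10 ranked between 4 (*Pik3ip1*) and 701 (*Foxo3*) with all 12 libraries. The points share their libraries and scaling, and the ranking is a description.

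All 10 genes have positions in GENCODE M21 on GRCm38. *Sesn1* lies on chromosome 10 at 41809935 to 41908424 (plus strand) and *Foxo3* on the same chromosome at 42181841 to 42276755 (minus). *Fbxo32* lies on chromosome 15 at 58175879 to 58214932, *Trim63* on chromosome 4 at 134315120 to 134329629, and *Pik3ip1* on chromosome 11 at 3330401 to 3342971. *Klf15* (90462576 to 90475238) and *Pdk4* (5483351 to 5496309) lie on chromosome 6, *Foxo1* (52268336 to 52353221) and *Txnip* (96557957 to 96561883) on chromosome 3, and *Irs2* on chromosome 8 at 10984681 to 11008458. Both *Foxo1* and *Txnip* are on the chromosome of *Man1a2* (100562208 to 100685503), with *Txnip* the nearer. *Fbxo32*, *Foxo1*, *Txnip*, *Pik3ip1* and *Irs2* overlap a transcript of the opposite strand (Gm15943, Gm20402, Gm15441, Gm12592 and 9530052E02Rik). The libraries mark strand, but whether counting used it is not given in the sources used here. Reads of these 5 genes and of their partners may therefore not be told apart. *Sesn1* and *Foxo1* also overlap a transcript of the same strand (9930024M15Rik and Gm38034), which strand cannot separate.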

How the data were processed

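Polyadenylated RNA of 12 libraries was sequenced in a strand-marking protocol, and the authors deposited raw read counts, 1 table per library, without normalization and with 0 other columns of per-sample values. The submitters' processing notes name mm10, STAR 2.5.2a, FastQC and DESeq2 without roles. The counting program, annotation and strand setting are not given in the sources used here. Spreadsheets had turned 27 symbols into dates, and these were tested unnamed.

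edgeR 4.0.16 under R 4.3.3 was run on the counts (filterByExpr, TMM, quasi-likelihood test) within the 6 libraries of each comparison, with Benjamini-Hochberg adjustment over all genes tested. A gene was called at an adjusted p under 0.05 together with 1.2-fold or more, as the methods of the study set it. SE was derived from the F statistic (log2 fold change divided by its square root). Single genes were compared by an exact permutation test of log2(CPM + 0.5). On simulated data with 200 genes changed by 2 on the log2 scale, 92.8% were recovered in liver, 98.5% between WT tissues and 50.3% in lung. False calls numbered 11 beside 180 recovered genes in liver, 22 beside 196 between WT tissues and 7 beside 100 in lung. The genes and lists were chosen with earlier results of these data known. Genes named were the 10, up to 3 called genes of each list with the largest change, the 5 nearest to *Sesn1* and *Man1a2*. *Insr*, *Irs1*, *Igf1r*, *Pck1*, *Ulk2*, *G6pc* and the marker genes, and all genes of the lists named for lung, were chosen after values were seen. Depth limits the lowest genes, and the floor of 3 reads covers counting error only. The lowest chi-square per gene between libraries of a group was 14.7, so none was counted as a copy. By the design text both tissues came from 3 mice per genotype, but it does not link the numbers across tissues. Deviations of liver and lung of the same number correlated at 0.184 to 0.263 in WT and 0.366 to 0.468 in null mice. Those of different numbers correlated at -0.187 to -0.009 in WT and -0.441 to 0.251 in null mice. The value of 0.468 was that of null liver 1 and null lung 1, which both carried muscle markers. The alternatives tried were DESeq2 1.42.0, other scalings and count filters, pooled fits, a replicate block and leaving out each library.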

Additional observations from a re-analysis of the deposited data

How the results depend on the processing

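Between 6 and 9 of the 10 genes were called higher in null liver under every alternative run, with 0 lower, and no direction of any of the 10 genes turned in either comparison of genotypes. With all 12 libraries in 1 fit, *Klf15* (0.72) and *Foxo3* (0.93) missed the threshold in liver. Over all genes, the liver count of 3856 became 1921 in that fit and 1641 to 3451 when a library was left out, with 2150 without WT liver 1, 2268 without WT liver 2 and 1641 without WT liver 3. Upper-quartile scaling moved the liver split from 1931 higher and 1925 lower to 1434 higher and 2666 lower. Between WT tissues, 5 of the 10 genes were called with all 12 libraries in 1 fit against 8, *Trim63*, *Foxo1* and *Txnip* losing the call.

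The lung count of 51 over all genes rested on the processing. It was 2355 with DESeq2, 2 with DESeq2's size factors, 109 with upper-quartile factors, 5 without the 20 most abundant genes, 210 where every library had to reach 10 counts, 2284 with all 12 libraries and 5687 with 10 libraries in 1 fit, a choice made after seeing the data that drops null liver 1 and null lung 1. edgeR called 0 with at least 1 count in all (4096 genes at an unadjusted p under 0.05) and 0 with the replicate block (2743). Leaving out a library gave 0 to 5881, the highest without null lung 1 and 0 without any other (2082 to 3946 at an unadjusted p under 0.05). The cause of these shifts was not tested. Calls of the 10 genes in lung are not given, since this contrast was used to choose them. When a library was left out, the log2 fold change in lung was 2.23 to 2.49 for *Sesn1* and 1.78 to 2.16 for *Fbxo32*.

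WT and null mice of a number are different animals, and their deviations correlated at -0.024, -0.002 and 0.143 in liver and -0.043, -0.039 and 0.099 in lung. With the replicate block, 8 of the 10 genes were called in liver (3304 over all genes). Between the WT tissues, blocked by number, 8 were called (12154 over all genes). In these comparisons the block changed no call of the 10 genes. In lung the block left 0 calls over all genes, as given above. The log2 fold change was then 2.35 for *Sesn1* and 2.00 for *Fbxo32*. Leaving out 1 null lung leaves 2 libraries, whose spread is pooled with that of WT lung.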
